A study of Homo sapiens with 18 samples.

Results

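This account concerns 7 genes that write or erase DNA methylation, chosen by name: DNMT1, UHRF1, DNMT3A, DNMT3B, TET1, TET2 and TET3. All 7 have a row among the 55765 gene symbols of the deposited table, and all 7 were among the 16154 genes tested, so none was lost to the filter on low values. They were measured by poly(A) RNA sequencing in 18 cultures of G401, a malignant rhabdoid tumour cell line. A control line edited by CRISPR/Cas9 at the AAVS1 safe harbour locus (WT) and 2 clones with biallelic disruption of RB1 (E1 and F2) were each given 10 µM tazemetostat, which blocks the histone methyltransferase EZH2, or the same volume of DMSO, its solvent, over 11 days. The 6 groups are therefore WT, E1 and F2 with DMSO and the same lines with tazemetostat, with 3 biological replicates each. All 3 lines are edited G401 cells, and E1 and F2 are 1 clone each, so a difference between a clone and WT can belong to the clone. Whether WT is a clone or a pool is not given in the sources used here.

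DNA methylation sits mainly on cytosines followed by guanine. DNMT1 copies it onto the new strand after each replication, and UHRF1 recognises half-methylated DNA and brings DNMT1 to it. DNMT3A and DNMT3B place methylation at sites that had none. TET1, TET2 and TET3 are dioxygenases that oxidise methylcytosine and so start its removal. RB1 restrains the E2F transcription factors, which drive genes of DNA replication, and EZH2 places the repressive methyl mark of the Polycomb complex PRC2 on histone H3, a separate system from methylation of DNA.

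The E2F motif was searched because RB1 restrains the E2F factors. The windows of DNMT1 and UHRF1 with a match are shown, with 1 window each of DNMT3B and TET1 that has none. The RefSeq (GRCh38.p14) set used here held 18 transcription starts for the 7 genes, of which DNMT3B had 1. Starts outside this set were not searched, so a gene without a match here can have one at another start. Windows from 250 bases before to 50 bases after each start were searched on both strands for TTTCGCGC, TTTGGCGC, TTTCCCGC and TTTGCCGC. Of the 18 windows, 3 held a match, 1 at DNMT1 and 2 at UHRF1, and 3.31% of all 35116 promoter windows of that length did. Each line below runs from 170 bases before to 30 bases after the start, on the gene's strand, with the match in capitals (as its reverse complement where it lies on the other strand).
DNMT1, chr19:10194924-10195123, minus strand: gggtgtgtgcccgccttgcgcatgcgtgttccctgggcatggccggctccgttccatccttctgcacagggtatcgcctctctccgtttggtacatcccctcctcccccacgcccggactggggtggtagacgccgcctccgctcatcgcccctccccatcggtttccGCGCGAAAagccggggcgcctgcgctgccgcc
UHRF1, first start, chr19:4909331-4909530, plus strand: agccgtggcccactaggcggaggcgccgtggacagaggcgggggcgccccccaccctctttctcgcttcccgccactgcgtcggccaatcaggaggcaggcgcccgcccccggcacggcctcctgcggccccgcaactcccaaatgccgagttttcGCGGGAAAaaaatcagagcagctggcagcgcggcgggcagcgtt
UHRF1, second start, chr19:4909974-4910173, plus strand: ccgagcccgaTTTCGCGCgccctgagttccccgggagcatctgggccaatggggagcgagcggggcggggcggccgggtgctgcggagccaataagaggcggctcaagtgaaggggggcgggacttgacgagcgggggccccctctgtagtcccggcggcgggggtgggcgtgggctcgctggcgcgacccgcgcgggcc
DNMT3B, chr20:32779682-32779881, plus strand: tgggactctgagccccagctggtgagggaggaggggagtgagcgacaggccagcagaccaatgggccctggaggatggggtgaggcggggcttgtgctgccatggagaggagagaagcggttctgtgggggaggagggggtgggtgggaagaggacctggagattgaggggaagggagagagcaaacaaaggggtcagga
TET1, first start, chr10:68560167-68560366, plus strand: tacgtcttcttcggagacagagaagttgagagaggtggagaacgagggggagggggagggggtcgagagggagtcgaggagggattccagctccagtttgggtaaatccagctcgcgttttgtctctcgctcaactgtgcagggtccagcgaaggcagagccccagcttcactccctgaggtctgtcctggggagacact
The DNMT1 match, TTTCGCGC on the opposite strand, spans the start itself, from -2 to 6. At the first UHRF1 start, TTTCCCGC lay on the opposite strand from -14 to -7, and at the second start TTTCGCGC lay on the gene's strand from -160 to -153. These 3 windows held the dinucleotide CG 30, 36 and 40 times in 300 bases, and windows without a match held it from 3 times (DNMT3B) to 46 times (the third starts of UHRF1 and DNMT3A). The cell cycle homology region (TTTGAA or TTCGAA), which shares no stretch with the E2F matches in these windows, was found in 16.4% of all windows and at 1 start each of DNMT3A and TET2. A match describes letters in a window, binding was not measured here, and the part of the motif in the results below was not tested.

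Before the members, the labels were checked. RB1 transcript lay between 2300 and 2828 normalized counts (counts divided by a size factor per library, as deposited) in the 6 WT libraries and between 505 and 1045 in the 12 clone libraries. SMARCB1, whose loss defines rhabdoid tumours, had 0 reads in every library, and VIM, a mesenchymal gene, had at least 27409.6. CDH1, an epithelial gene, lay between 8.04 and 422, PTPRC, a blood cell gene, had at most 2 reads, and PECAM1 has no row in the table. ACTA2, smooth muscle actin, lay between 0 and 12.5 with DMSO and between 2893 and 5631 with tazemetostat, and its part in the results below was not tested. Depth was 25709489 to 39314860 reads per library, and the 7 members had between 76 and 13069 reads in a library.

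With tazemetostat, all 7 genes fell in WT, and TET1, UHRF1 and DNMT3B fell more than 2-fold. Here and below, "fell", "rose", "lower" and "higher" of a tested difference mean a Benjamini-Hochberg adjusted p under 0.05 in limma over all 16154 genes, and "past the threshold" adds a log2 change of at least 1 in size. In WT, 29.4% of all tested genes fell and 6.77% were lower past the threshold, while 32.9% were lower with groups that did not overlap, as were 7 of 7 members. This last share is given for tazemetostat in WT alone, so groups called apart in other comparisons below have no such share beside them. The 7 members had a median log2 change of -0.88, and all genes 0.03. In E1, 4 members fell and 1 was past the threshold (19.7% and 3.78% of all genes), with a median of -0.34. In F2, 5 fell and 1 was past the threshold (23.2% and 3.71% of all genes), with a median of -0.51. TET1 was the member past the threshold in both clones.

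**Figure D1:**
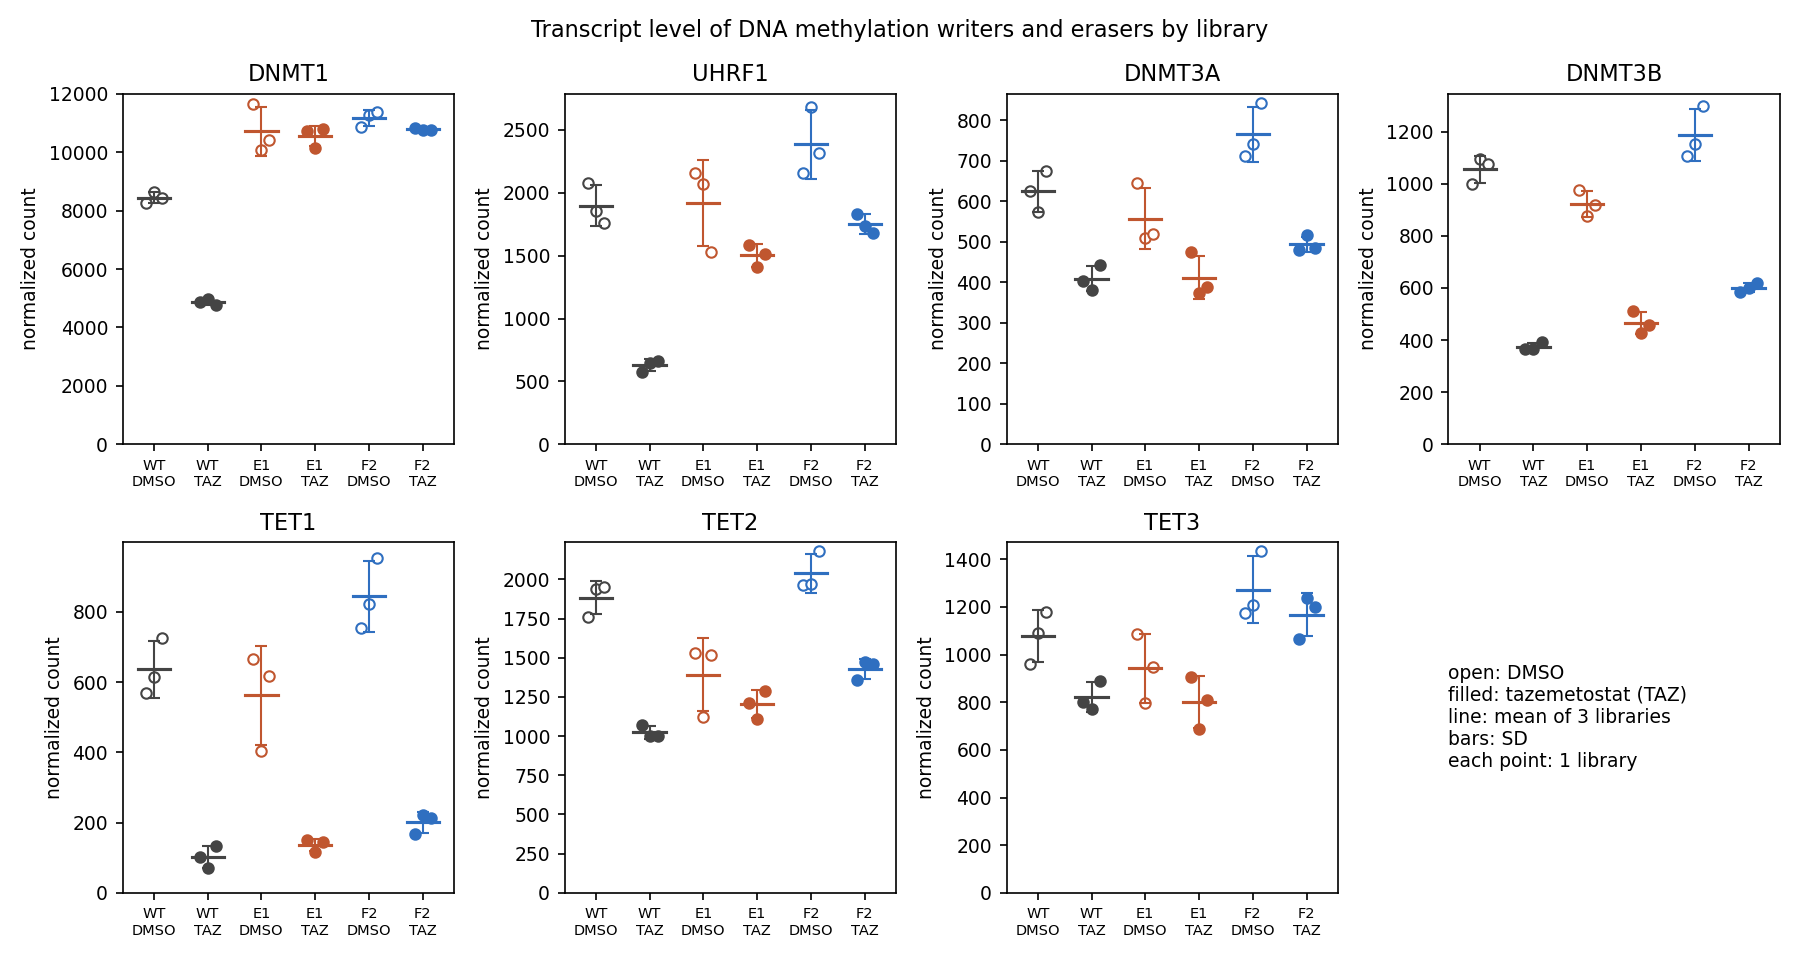
Normalized count (y axis, from 0) of each of the 7 genes in 18 libraries by line and treatment; points are libraries, lines are means of 3 and bars are SD. WT with tazemetostat has the lowest mean for 6 genes, all except TET3, and overlaps E1 with tazemetostat for DNMT3A and TET1. F2 with DMSO has the highest mean for all 7.

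DNMT1, the maintenance methyltransferase, was the most abundant member. In WT it had 8280, 8628 and 8450 normalized counts with DMSO and 4868, 4990 and 4777 with tazemetostat. The treated level was 57.7% of the DMSO level, a log2 change of -0.79 ± 0.06 (SE, n = 3 and 3; limma adjusted p 3.8e-10), and the groups were far apart. In E1 the values were 11670, 10088 and 10407 with DMSO and 10719, 10159 and 10795 with tazemetostat, which overlap. In F2 they were 10875, 11270 and 11377 with DMSO and 10843, 10771 and 10774 with tazemetostat, which lie close together without overlap. A fall of DNMT1 was not detected in either clone: the log2 change was -0.02 in E1 (95% interval -0.14 to 0.10; adjusted p 0.80) and -0.05 in F2 (-0.17 to 0.07; adjusted p 0.48). Neither interval reaches the change seen in WT.

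UHRF1, the partner that recruits DNMT1, had 2077, 1853 and 1762 normalized counts in WT with DMSO and 573, 649 and 664 with tazemetostat. It was left at 33.1% of the DMSO level, and its log2 change was -1.59 ± 0.11 (SE; adjusted p 4.0e-10, limma). In E1 it had 2160, 2070 and 1529 with DMSO and 1587, 1407 and 1511 with tazemetostat. These groups overlap through the third DMSO library. In F2 it had 2155, 2684 and 2313 with DMSO and 1832, 1738 and 1677 with tazemetostat, without overlap. UHRF1 fell in F2 by 0.44 on the log2 scale (limma adjusted p 0.0027). In E1 the log2 change was -0.34 (adjusted p 0.018), a call that was lost without E1 DMSO replicate 1 (0.11), without E1 DMSO replicate 2 (0.074), without E1 tazemetostat replicate 2 (0.072) or with only these groups in the fit (0.085).

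DNMT3A, a de novo methyltransferase, changed by a similar amount in the 3 lines. In WT it had 626, 574 and 674 normalized counts with DMSO and 404, 381 and 442 with tazemetostat. In E1 it had 645, 509 and 519 with DMSO and 474, 374 and 387 with tazemetostat. In F2 it had 712, 743 and 842 with DMSO and 481, 516 and 485 with tazemetostat. The treated libraries lay below the DMSO libraries in each line. The log2 changes were -0.61, -0.44 and -0.63 in WT, E1 and F2, each ± 0.11 (SE), with limma adjusted p of 8.5e-05, 0.0029 and 8.2e-05.

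DNMT3B, the other de novo methyltransferase, fell further. In WT it had 997, 1095 and 1075 normalized counts with DMSO and 365, 365 and 393 with tazemetostat, for a log2 change of -1.49 ± 0.08 (SE; adjusted p 9.1e-12, limma). In E1 it had 976, 876 and 920 with DMSO and 512, 426 and 458 with tazemetostat. In F2 it had 1108, 1155 and 1300 with DMSO and 584, 601 and 620 with tazemetostat. The groups were separate in every line, and the clones kept about the same fraction, 50.4% in E1 and 50.7% in F2, against 35.4% in WT. The log2 changes of -0.99 in E1 (adjusted p 5.2e-09) and -0.98 in F2 (5.4e-09) fell just short of the limit of 1. In E1 the limit was passed when libraries were scaled to equal totals (-1.06), by under 0.01 with TMM scaling and with edgeR on the recovered reads, or without E1 DMSO replicate 2 or E1 tazemetostat replicate 1, and in F2 with equal totals (-1.01) or without F2 DMSO replicate 1.

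TET1, the member with the lowest values after treatment, had the largest change of the 7 in each line. In WT it had 568, 614 and 727 normalized counts with DMSO and 102, 71.1 and 133 with tazemetostat. In E1 it had 667, 403 and 619 with DMSO and 149, 117 and 145 with tazemetostat. In F2 it had 755, 823 and 955 with DMSO and 166, 221 and 214 with tazemetostat. The highest treated library, at 221, lay below the lowest DMSO library of any line, at 403. TET1 was left at 16.0%, 24.4% and 23.7% of the DMSO level in WT, E1 and F2, with log2 changes of -2.67, -2.004 and -2.07, each ± 0.21 (SE; limma adjusted p 1.7e-09, 1.5e-07 and 7.7e-08). TET1 shares sequence span with the pseudogene COX20P1, which had 17.8 to 57.5 normalized counts, and DNMT1 with S1PR2 (18.3 to 81.6, against at least 4777 for DNMT1). How the counting treated reads in such overlaps is not given in the sources used here, so the low treated values of TET1 carry that uncertainty.

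TET2 changed less than TET1. In WT it had 1763, 1938 and 1952 normalized counts with DMSO and 1072, 998 and 1004 with tazemetostat, for a log2 change of -0.88 ± 0.10 (SE; adjusted p 2.5e-07, limma). In F2 it had 1966, 1970 and 2179 with DMSO and 1356, 1476 and 1459 with tazemetostat, a log2 change of -0.51 (adjusted p 2.2e-04). In both lines the groups were apart. With libraries scaled to equal totals the WT value was -1.03, past the threshold. In E1 it had 1532, 1123 and 1520 with DMSO and 1212, 1110 and 1289 with tazemetostat, which overlap through the second DMSO library. The log2 change in E1 was -0.20 (95% interval -0.40 to 0.01; adjusted p 0.11), and without that library it was -0.34 (adjusted p 9.1e-04).

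TET3 was the steadiest member, with a 1.59-fold span between the highest and the lowest group mean, against 8.29-fold for TET1. In WT it had 963, 1090 and 1178 normalized counts with DMSO and 802, 773 and 890 with tazemetostat, for a log2 change of -0.39 ± 0.12 (SE; adjusted p 0.0090, limma). The clones' groups overlapped. In E1 it had 1086, 796 and 946 with DMSO and 906, 690 and 810 with tazemetostat, and in F2 1175, 1209 and 1436 with DMSO and 1065, 1238 and 1201 with tazemetostat. A change was not detected in F2 (-0.12, 95% interval -0.37 to 0.13, adjusted p 0.42) or in E1 (-0.23, -0.48 to 0.02, 0.13), although without E1 DMSO replicate 2 the E1 value was -0.35 (adjusted p 0.026).

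**Figure D2:**
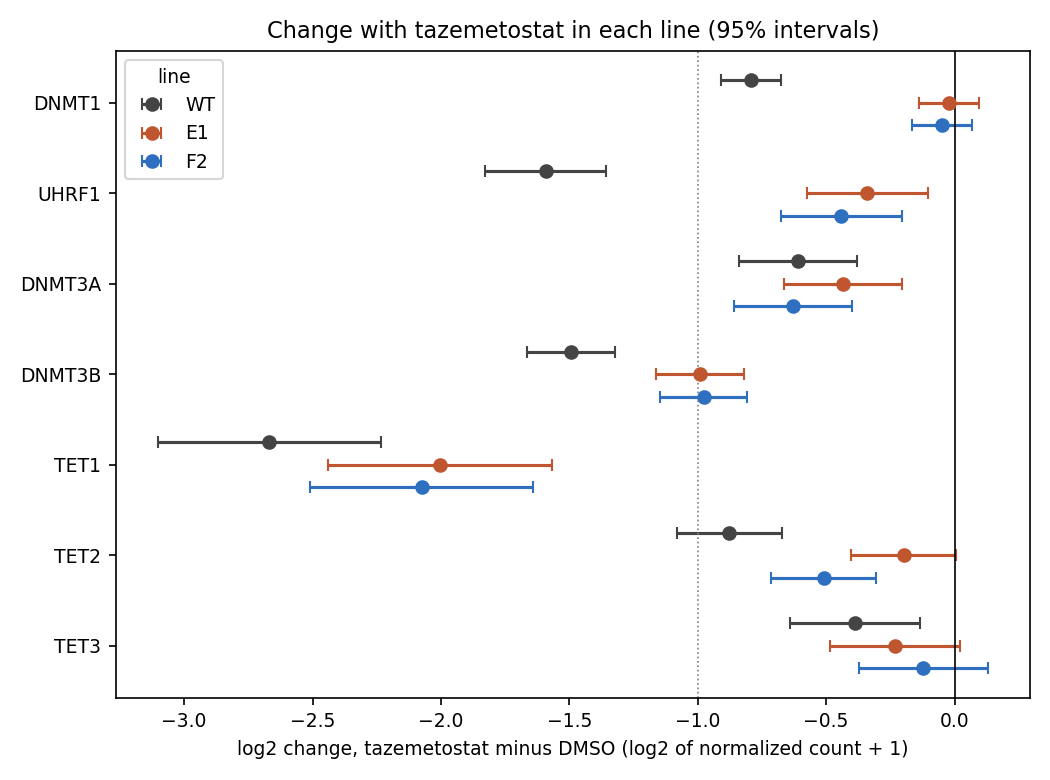
Log2 change with tazemetostat (x axis, on the log2 of normalized count + 1) of each gene (y axis) in WT, E1 and F2; points are limma estimates, bars 95% intervals and the dotted line marks a log2 change of -1. The WT interval lies apart from both clones' intervals for DNMT1, UHRF1 and DNMT3B, while DNMT3A gives much the same value in the 3 lines.

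The response to tazemetostat was then compared between each clone and WT by the difference of the log2 changes, where a positive value means a smaller fall in the clone. The 2 comparisons share the WT libraries. UHRF1 differed past the threshold in both, by 1.25 ± 0.16 in E1 (SE; limma adjusted p 7.3e-06) and 1.15 ± 0.16 in F2 (2.7e-05). DNMT1 differed by 0.77 ± 0.08 in E1 (6.0e-07) and 0.74 ± 0.08 in F2 (1.5e-06), and DNMT3B by 0.50 in E1 (0.0022) and 0.52 in F2 (0.0025). TET2 differed in E1 (0.68, adjusted p 8.6e-04), and its value in F2 was 0.37 (0.056). That F2 value passed with edgeR (0.047), DESeq2 (0.040), libraries scaled to equal totals (0.015), only these groups in the fit (0.0040) or a replicate block (0.045). By limma over all groups, 4 members had a smaller fall in E1 and 3 in F2, where 17.2% and 13.7% of all genes had a positive difference at this level, and 1 member in each was past the threshold, as were 4.79% and 4.82% of all genes.

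For the other members the difference of response did not pass the test. TET1 had a difference of 0.66 in E1 (95% interval 0.05 to 1.28, adjusted p 0.087) and 0.59 in F2 (-0.02 to 1.21, 0.15), so its intervals allow a difference of more than 1 as well as nearly none. Without WT tazemetostat replicate 3, the highest of the treated WT libraries for TET1, these became 0.88 (adjusted p 0.023) and 0.81 (0.043). DNMT3A had 0.17 in E1 (-0.15 to 0.50, adjusted p 0.41) and -0.02 in F2 (-0.34 to 0.31, 0.94). TET3 had 0.16 in E1 (-0.20 to 0.51, 0.50) and 0.27 in F2 (-0.09 to 0.62, 0.27). Between the clones, no member's response differed (0 of 7, with 1 at an unadjusted p under 0.05, and 0 by edgeR or DESeq2), where 14.8% of all genes did in either direction. Without E1 DMSO replicate 3, TET2 passed at 0.38 (adjusted p 0.049).

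In the parallel cultures with DMSO, DNMT1 was higher in both clones, by 0.34 on the log2 scale in E1 (limma adjusted p 1.6e-04) and 0.40 in F2 (4.4e-05). Its lowest clone library with DMSO, at 10088, lay above the highest WT library, at 8628. UHRF1 did not differ detectably from WT in E1 (0.00, 95% interval -0.23 to 0.24) and was higher in F2 by 0.33 (adjusted p 0.047), a call that was lost without WT DMSO replicate 2 or 3 or F2 DMSO replicate 2 or 3 (adjusted p 0.081 to 0.21), with only these groups in the fit (0.089) or without the filter on low genes (0.090). DNMT3A was at 0.29 in F2 (0.067 in limma), and DESeq2 called it (0.047). TET2 was lower in E1 by 0.45 (adjusted p 0.0022, and 0.11 with only these groups in the fit). Against WT, 1 member was higher and 1 lower in E1 (11.4% and 11.7% of all genes), and 2 were higher in F2 (8.1%). By limma, edgeR or DESeq2 none was past the threshold in either, where 5.04% and 2.98% of all genes were by limma. At an unadjusted p under 0.05 there were 3 members in E1 by each tool, and in F2 3 by limma and 6 each by edgeR and DESeq2.

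With tazemetostat both clones stood above WT in DNMT1, UHRF1 and DNMT3B. DNMT1 was higher by 1.11 in E1 and 1.15 in F2 (limma adjusted p 2.3e-11 and 1.4e-11), and UHRF1 by 1.26 and 1.48 (3.9e-08 and 4.3e-09), all past the threshold. DNMT3B was higher by 0.31 in E1 (0.0037) and 0.68 in F2 (1.3e-06). In F2 all 7 members were higher (25.1% of all genes), 3 of them past the threshold (7.31%). TET1 was one of these at 1.00 (adjusted p 5.1e-04), on the limit, and it fell short of it without WT tazemetostat replicate 2 (0.77), without F2 tazemetostat replicate 2 or 3, with a pseudocount of 5 (0.97) or with DESeq2. TET3 was higher by 0.51 (0.0017), TET2 by 0.48 (4.3e-04) and DNMT3A by 0.27 (0.043), the last lost without WT tazemetostat replicate 1 or 2 or any 1 of the F2 tazemetostat libraries (adjusted p 0.065 to 0.15). In E1 3 members were higher (25.0% of all genes), 2 past the threshold (5.4%).

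The clones also differed from each other. With DMSO, 6 members were lower in E1 than in F2 (17.7% of all genes), from UHRF1 at -0.32 (limma adjusted p 0.030) to TET1 at -0.61 (0.027), and DNMT1 was at -0.06 (0.41). E1 DMSO replicate 2 was the lowest of its group for every member except UHRF1, and without it TET1 was at -0.39 (adjusted p 0.15). The calls of UHRF1 and TET1 were also lost without F2 DMSO replicate 2 or 3, and that of UHRF1 without E1 DMSO replicate 3. With only these groups in the fit, the calls of UHRF1, DNMT3A, TET1 and TET3 were lost (adjusted p 0.057 to 0.23). With tazemetostat, DNMT3B (-0.37, adjusted p 0.0016) and TET3 (-0.55, 0.0018) were lower in E1, 2 of 7 members where 16.6% of all genes were. TET1 and TET2 joined them with edgeR and DESeq2 (4 of 7), and UHRF1, DNMT3A, TET1 and TET2 did with only these groups in the fit or with libraries scaled to equal totals (6 of 7). No member was past the threshold between the clones by limma, edgeR or DESeq2 (at an unadjusted p under 0.05, 6 with DMSO by each tool, and with tazemetostat 5 by limma and edgeR and 6 by DESeq2), where 7.56% of all genes were with DMSO and 6.82% with tazemetostat.

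Over the 6 groups, DNMT1 ran in order of mean from F2 with DMSO (11174 ± 264, SD, n = 3) through F2 with tazemetostat (10796 ± 40.6), E1 with DMSO (10722 ± 837) and E1 with tazemetostat (10558 ± 347) to WT with DMSO (8453 ± 174) and WT with tazemetostat (4878 ± 107). As neighbours in this order, F2 with tazemetostat, E1 with DMSO and E1 with tazemetostat overlap, and both WT groups stand clear. E1 with DMSO also overlaps F2 with DMSO, which is not its neighbour in this order. UHRF1 ran from F2 with DMSO (2384 ± 271) through E1 (1920 ± 341) and WT with DMSO (1897 ± 162) to F2 with tazemetostat (1749 ± 78.1), each overlapping the next. Below these, without overlap between neighbours, came E1 (1502 ± 90.5) and WT with tazemetostat (628 ± 49.0). DNMT3B and TET1 were ordered first by treatment: the 3 DMSO groups lay above the 3 treated groups, and within each treatment F2 was highest. For DNMT3B no neighbouring groups overlapped. For TET1, WT and E1 overlapped with DMSO and again with tazemetostat, where the means were 200.2 ± 29.9 in F2, 137 ± 17.5 in E1 and 102 ± 31.0 in WT. For TET3 every group overlapped the next, from 1273 ± 142 in F2 with DMSO to 802 ± 108 in E1 with tazemetostat.

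Per kilobase of exon, which allows levels of different genes to be set side by side, DNMT1 was the highest member in every group (863 normalized counts per kb in WT with DMSO) and UHRF1 the next (369), then DNMT3B (228). DNMT3A was the lowest with DMSO (52.0 in WT) and TET1 the lowest with tazemetostat (11.0 in WT). Exon lengths came from GENCODE v29, and with the length of the principal transcript TET2 lay above DNMT3B with tazemetostat. TET1 made up 25.3% ± 1.3 (SD, n = 3) of the TET transcripts per kb in WT with DMSO and 7.75% ± 1.9 with tazemetostat. The share went from 27.0% to 9.61% in E1 and from 28.5% to 10.6% in F2. With the length of the principal transcript the TET1 share was lower, going from 19.6% to 5.91% in WT, 21.4% to 7.23% in E1 and 22.5% to 8.11% in F2. TET2 and TET3 together made up most of the TET transcript in all 6 groups. DNMT3B made up 81.4%, 81.2% and 80.1% of the DNMT3A and DNMT3B transcripts per kb with DMSO in WT, E1 and F2, and 70.4%, 74.6% and 76.0% with tazemetostat. With the length of the principal transcript the DNMT3B share was 78.7%, 78.5% and 77.3% with DMSO, and 66.7%, 71.3% and 72.8% with tazemetostat.

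**Figure D3:**
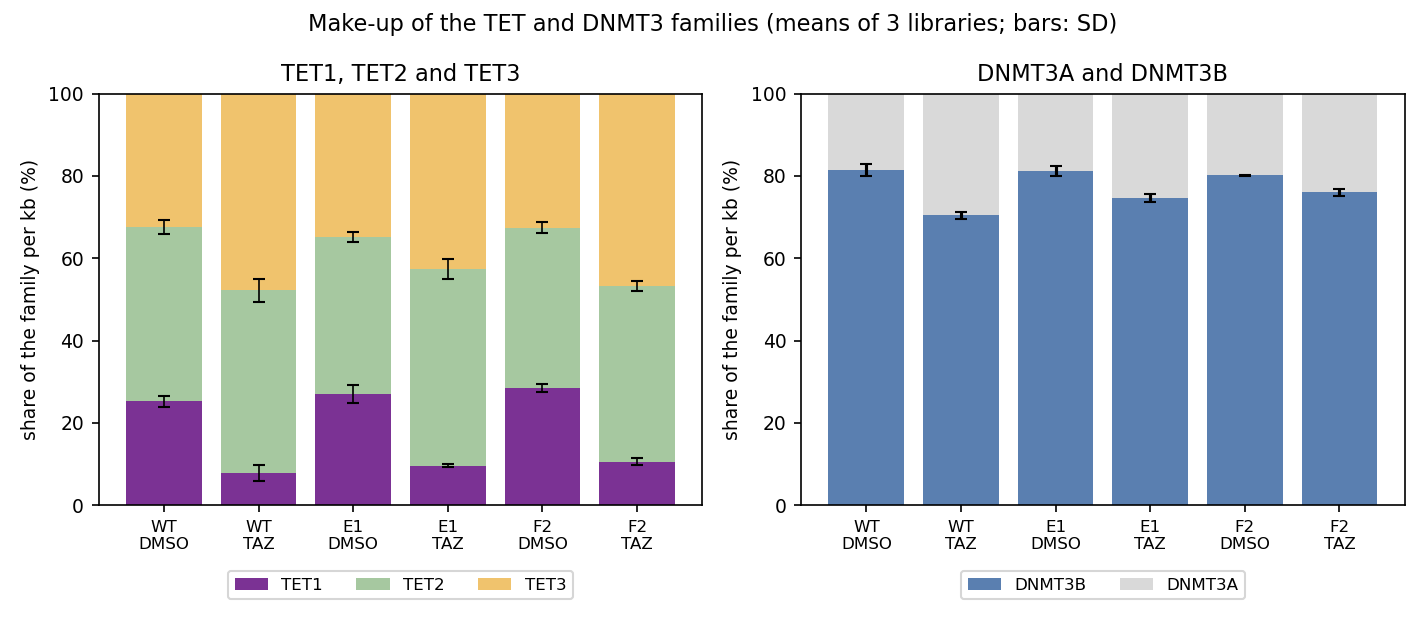
Share (y axis, % of normalized counts per kb of exon) of TET1, TET2 and TET3 in their sum (left) and of DNMT3B and DNMT3A in theirs (right) for the 6 groups; bars are means of 3 libraries and whiskers SD at each boundary. The TET1 shares with tazemetostat are 7.75% (WT), 9.61% (E1) and 10.6% (F2), against at least 25.3% with DMSO.

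Over the 18 libraries, DNMT3B and TET1 followed each other closely (Pearson r 0.986 on the log2 scale), as did DNMT3A with TET1 (0.927) and with DNMT3B (0.926). DNMT1 and UHRF1 reached 0.897, UHRF1 and DNMT3B 0.820, UHRF1 and TET1 0.770, and DNMT1 and TET1 0.523. TET2 reached 0.898 with DNMT3B, 0.897 with DNMT3A, 0.885 with TET1, 0.826 with TET3, 0.753 with UHRF1 and 0.539 with DNMT1. TET3 reached 0.822 with DNMT3A, 0.698 with DNMT3B, 0.682 with TET1, 0.597 with UHRF1 and 0.460 with DNMT1. These are descriptions over libraries that share lines and treatment. Among 12984 genes with a mean of at least 50, the 3 most like UHRF1 were LIG1 (0.982), which joins DNA ends in replication, GAREML (0.978) and GPR161 (0.978). For DNMT1 they were SEMA4D (0.990), RIBC2 (0.981) and C5 (0.981). TET1 was most like SPAG17 (0.987), DNMT3B (0.986) and UACA (0.976), and DNMT3B most like TET1, ATP9A (0.985) and SCMH1 (0.984). The nearest were ATP2A1 (0.968), FBXO17 and TRERF1 for DNMT3A, KMT2E (0.976), IFT172 and HACE1 for TET2, and CCDC40 (0.923) and MED12 for TET3.

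Most partners of maintenance methylation fell in WT as UHRF1 did. Of 7 listed genes 6 were tested, and in WT 5 fell with tazemetostat, 3 of them past the threshold, with a list median of -1.20 (29.4% and 6.77% of all genes). CDCA7, which activates the remodeller HELLS, had 3627, 3537 and 3222 normalized counts with DMSO and 1144, 1193 and 1097 with tazemetostat (log2 change -1.59, limma adjusted p 1.9e-13). The replication clamp PCNA changed by -1.46 (1.1e-09) and LIG1 by -1.42 (9.8e-12), and HELLS, at -0.98 (2.5e-09), stayed within the limit. In E1 0 of 6 fell by limma, edgeR or DESeq2 (1 changed at an unadjusted p under 0.05; median -0.07), and in F2 4 fell and 0 passed the threshold (median -0.27). With tazemetostat 4 of the 6 were higher past the threshold in each clone than in WT (5.4% of all genes in E1 and 7.31% in F2), led by PCNA in E1 (2.10, adjusted p 4.2e-11) and LIG1 in F2 (1.53, 2.3e-11). DPPA3, an inhibitor of UHRF1, had at most 1 read in a library.

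**Figure D4:**
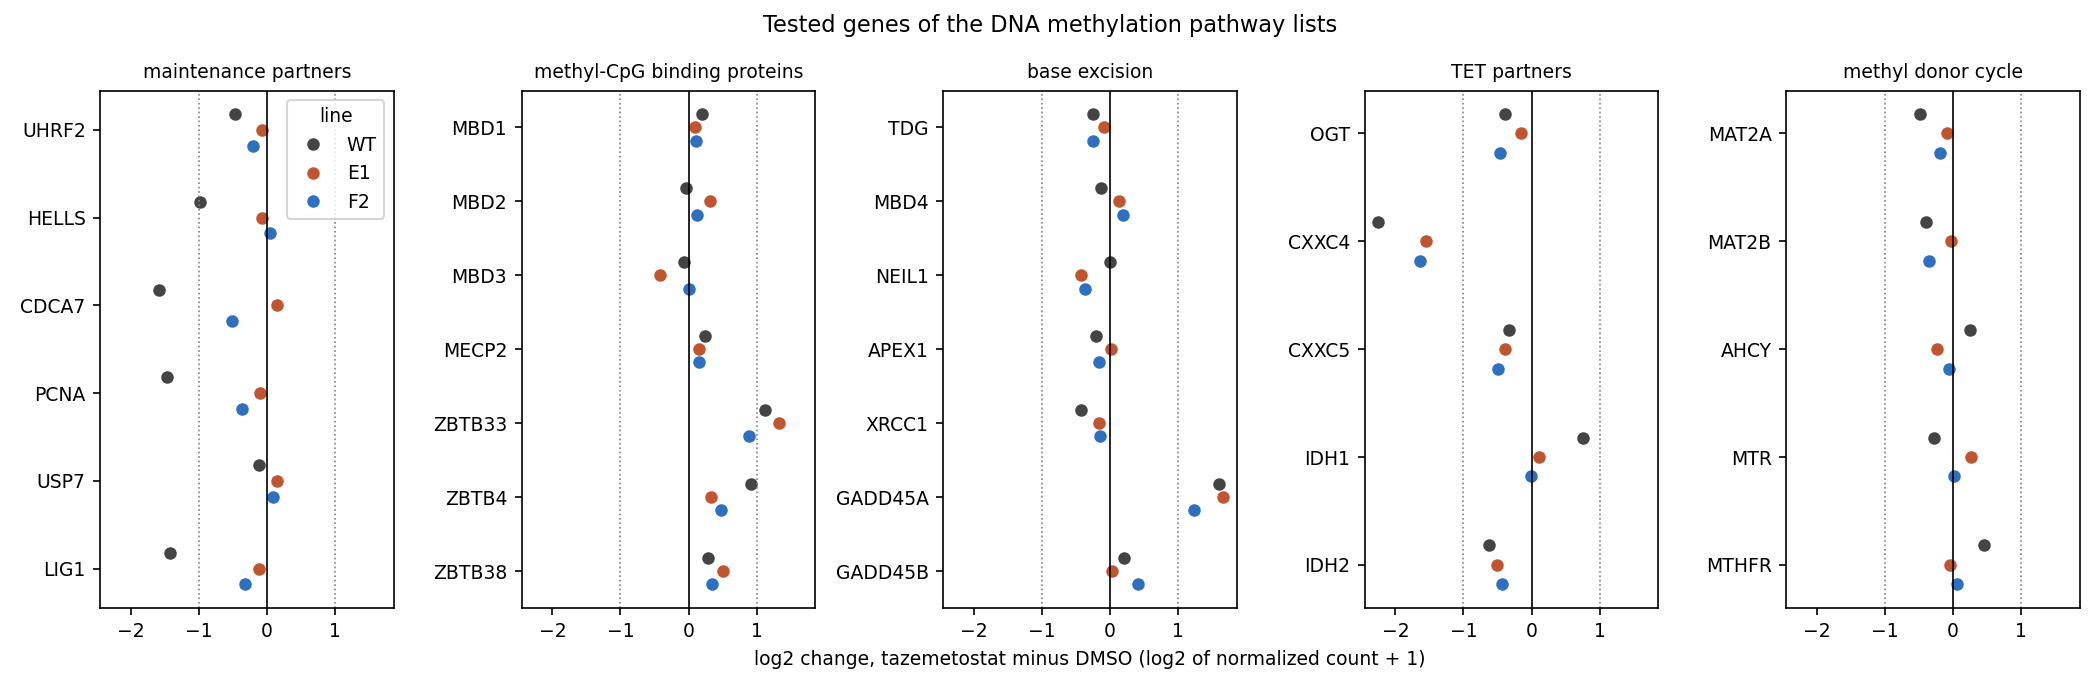
Log2 change with tazemetostat (x axis, log2 of normalized count + 1) of the tested genes (y axis) of 5 lists in WT, E1 and F2; each point is a limma estimate and dotted lines mark log2 changes of -1 and 1. CDCA7, PCNA and LIG1 lie beyond -1 in WT, at -0.52, -0.37 and -0.32 in F2 and nearer 0 in E1, whereas CXXC4 and GADD45A lie beyond the lines in all 3 lines of cells.

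Around the TET enzymes, CXXC4, which binds TET2 and unmethylated CG sites, was the list's member that fell past the threshold. It had 903, 904 and 991 normalized counts in WT with DMSO and 186, 195 and 203 with tazemetostat, and its log2 changes in WT, E1 and F2 were -2.25, -1.55 and -1.64 (limma adjusted p 4.4e-13, 1.4e-10 and 4.9e-11). Of the 5 genes of this list (CXXC4, CXXC5, OGT, IDH1 and IDH2), those that fell in WT, E1 and F2 numbered 4, 3 and 4, against 29.4%, 19.7% and 23.2% of all genes. IDH1, which makes the 2-oxoglutarate that TET enzymes use, set F2 apart. It had 12933, 13714 and 11035 normalized counts in WT with DMSO against 4472, 4491 and 3853 in F2, and 22367, 22844 and 18369 in WT with tazemetostat against 4230, 4172 and 4292 in F2. The log2 difference from WT was -1.55 with DMSO (2.0e-09) and -2.32 with tazemetostat (2.7e-12), and E1 was above WT with DMSO by 0.42 (0.0038).

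Among genes that remove oxidised or deaminated bases and their helpers, 7 of 8 listed were tested. GADD45A, a DNA damage gene linked to demethylation, rose past the threshold in WT, E1 and F2, by 1.61, 1.66 and 1.23 (limma adjusted p 5.5e-12, 3.8e-12 and 3.1e-10), and was the only 1 of the 7 to do so. Of all 16154 genes, 2342, 1824 and 2145 rose past the threshold in WT, E1 and F2. NEIL1, a DNA glycosylase, was lower in E1 than in WT by 1.01 on the log2 scale with DMSO (0.0038, within the limit without E1 DMSO replicate 2 or WT DMSO replicate 3) and by 1.43 with tazemetostat (5.8e-05). Of 7 genes listed as methyl-CpG binding proteins, 5, 4 and 3 rose in WT, E1 and F2 and 0 fell, by limma at an adjusted p under 0.05. At that level 5618, 4372 and 4684 of all 16154 genes rose. ZBTB33 (Kaiso) rose past the threshold in WT (1.12, adjusted p 1.3e-08, and 0.97 with libraries scaled to equal totals) and E1 (1.33, 1.5e-09). In F2 ZBTB33 rose within the limit (0.89, 3.6e-07). It had 927, 928 and 829 normalized counts in WT with DMSO and 1948, 2006 and 1869 with tazemetostat. None of 5 genes of the methyl donor cycle passed the threshold in any line by limma, edgeR or DESeq2, and at an adjusted p under 0.05 alone 1 rose and 3 fell in WT (5 of 5 at an unadjusted p under 0.05). Of all 16154 genes, 5618 rose and 4749 fell in WT by limma at an adjusted p under 0.05.

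Germline genes that promoter methylation commonly keeps silent gave no tested signal. None of 10 listed reached the filter of a mean of 10. MAEL was the highest, with at most 13 reads in a library. With DMSO it had 0 to 1.75 normalized counts in WT, 0 to 1.95 in E1 and 1.02 to 4.15 in F2, and with tazemetostat 2.46 to 2.96, 6.60 to 9.67 and 8.32 to 13.1. DAZL had 1 read in all 18 libraries together. DNMT3L, the catalytically inactive cofactor of DNMT3A and DNMT3B, had at most 12 reads in a library. DNA methylation itself was not measured.

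Proliferation genes moved in the same groups as the maintenance genes. Of 10 listed, 10 fell in WT with tazemetostat and 7 passed the threshold (median -1.32), against 0 past the threshold in E1 (3 fell and 4 had an unadjusted p under 0.05, median -0.14) and 0 in F2 (6 fell and 1 rose, median -0.27), with the same counts past it by edgeR and DESeq2. Of all genes, 29.4%, 19.7% and 23.2% fell in WT, E1 and F2 and 6.77%, 3.78% and 3.71% did past the threshold. Their summed level was 76076 to 82405 normalized counts in WT with DMSO and 28739 to 32386 with tazemetostat. It was 84633 to 87228 and 75856 to 84975 in E1, and 93464 to 98617 and 84838 to 88548 in F2, so the treated groups lay apart from DMSO in WT and F2 and overlapped it in E1, and none of the 10 was at 0 in any group. The log2 change of EZH2, the target of the drug, was -1.50 (limma adjusted p 6.7e-13) for WT, -0.08 (0.34) for E1 and -0.27 (0.0022) for F2. The part of these genes' change in the results for DNMT1 and UHRF1 was not tested, and in these bulk samples fewer cells with a transcript cannot be told apart from less transcript per cell.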

How the data were processed

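The authors deposited 1 table of gene values for 18 libraries, a signal made of counts divided by a size factor per library. Per the submitters' processing notes, Trim Galore 0.4.4, STAR 2.6.0a, HTSeq, DESeq2 and build hg19 were used, with no role or order given, and the annotation and the use of strand in counting are not given in the sources used here. Libraries were stranded and paired-end, per the labels' protocols. Multiplying by the factor gave whole reads for 100% of values (tolerance 0.001 read). Every column belonged to 1 sample.

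Groups came from the sample titles. limma 3.58.1 (lmFit, eBayes with a trend, R 4.3.3) was fitted on log2(value + 1), a scale that understates changes of low genes, for genes with a mean of at least 10 (16154 of 55765), with 6 group means and no block. Benjamini-Hochberg adjustment ran over all tested genes within a contrast, and a gene passed the threshold with an adjusted p under 0.05 together with a 2-fold change (1 on the log2 scale). Counts at an unadjusted p under 0.05 are given without the share of all genes at that level. Alternatives were other pseudocounts and filters, other scalings, fits to the compared groups alone, edgeR 4.0.16 and DESeq2 1.42.0 on the recovered reads, a replicate block, and leaving out each library. The script was tested on simulated data.

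The members and lists were chosen with earlier results of these data known. Besides the members, genes were named where a list gene passed the threshold in a treatment or clone contrast (at most 2 rises and 2 falls per list and contrast), or were 1 of the 3 genes most correlated with a member; 1 such gene is not reported here. HELLS at its value in WT, and the chosen germline genes, are given beside these. Among 9 comparisons of groups, deviations of same-numbered libraries correlated positively in all 3 pairs for F2 against WT with DMSO (0.108 to 0.375). They did so more weakly for tazemetostat against DMSO in WT (0.050 to 0.315). Each of the other comparisons had a negative pair. Promoters were matched by symbol for 7 of 7 members. Protein patterns were not searched. Figures used matplotlib 3.10.9 in Python 3.11.15.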

Additional observations from a re-analysis of the deposited data

Results flagged for a closer look

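These results stood out because the response to tazemetostat differed between a clone and WT by a test of the difference itself (limma, adjusted p under 0.05), where a positive value means a smaller fall or a rise in the clone. For UHRF1 the difference was 1.25 in E1 and 1.15 in F2, and for DNMT1 0.77 and 0.74. DNMT3B differed by 0.50 and 0.52, and TET2 by 0.68 in E1. Of 6 tested maintenance partners, HELLS among them, 6 had a positive difference in E1 and 4 in F2 (17.2% and 13.7% of all genes). Past the threshold were 3 in E1 and 4 in F2 (4.79% and 4.82% of all genes). Among these, CDCA7 differed by 1.74 in E1 and 1.08 in F2, PCNA by 1.36 and 1.10, and LIG1 by 1.30 and 1.10. HELLS differed by 1.03 in F2, which was within the limit of 1 without F2 DMSO replicate 2, F2 tazemetostat replicate 3 or WT tazemetostat replicate 3, and PCNA in F2 was at 1.00, just under the limit, without WT tazemetostat replicate 3.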

How the results depend on the processing

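The number of members past the threshold was within 1.5 times the value given above under every alternative that was run, except with tazemetostat in the clones, where DNMT3B joined TET1. In E1 the count was 2 with the same total, TMM scaling or edgeR, and 1 to 2 when each library was left out; in F2 it was 2 with the same total, and 1 to 2 without each library. Of 840 values under the other settings 829 kept direction and side of the threshold, and of 630 without 1 library 599 did. These counts use the log2 limit, and calls at an adjusted p under 0.05 alone changed as well. With the main fit included, UHRF1 in F2 against WT with DMSO was called in 11 of 17 fits. TET1 in E1 against F2 with tazemetostat was called in 8 of 17, and TET2 in the F2 response difference in 6 of 23. The falls of all 7 members in WT were called in 17 of 17. Scaling to the same total moved the median of all genes by -0.15 in WT with tazemetostat, 0.15 for F2 against WT with tazemetostat and 0.12 for the F2 response difference. It reversed 4 values near 0: UHRF1 in E1 against WT with DMSO (-0.017), TET3 in E1 against WT with tazemetostat (0.022), DNMT3A in the F2 response difference (0.10) and DNMT1 in the response of E1 minus F2 (-0.0081). Leaving out 1 library reversed others near 0. The ranges were -0.062 to 0.043 for DNMT1 with tazemetostat in E1, and for E1 against WT -0.089 to 0.16 for UHRF1 and -0.34 to 0.022 for TET1 with DMSO, and -0.10 to 0.069 for DNMT3A and -0.13 to 0.062 for TET3 with tazemetostat. They were -0.075 to 0.051 for DNMT3A in the F2 response difference, and in the response of E1 minus F2 -0.013 to 0.092 for DNMT1, -0.053 to 0.20 for UHRF1, -0.085 to 0.048 for DNMT3B and -0.15 to 0.21 for TET1.

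Counts over all genes followed the filter, since it sets how many genes are tested. Without it they were 5720 (main count 3436), 4082 (2434) and 4698 (2745) for tazemetostat in WT, E1 and F2, and among treated libraries 3130 (1833) between E1 and WT, 3273 (1984) between F2 and WT and 2001 (1101) between the clones. With a minimum mean of 50 they were 1550 and 1768 for tazemetostat in E1 and F2, 504 (814) between E1 and WT and 792 (1222) between the clones with DMSO, 1139, 1230 and 605 for the 3 comparisons of treated libraries, and 605 (938) for the response of E1 minus F2.

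In the fit with a replicate block, the members past the threshold were 3, 1 and 1 for tazemetostat in WT, E1 and F2, and all genes 3444, 2434 and 2750. F2 against WT with DMSO, where same-numbered libraries correlated at 0.108 to 0.375, had 481 genes with and without the block. At an adjusted p under 0.05 alone, the block added 6 calls, TET1 and TET2 in E1 against WT (0.035 and 0.045) and in E1 against F2 with tazemetostat (0.024 and 0.044), TET1 in the E1 response difference (0.045) and TET2 in the F2 one (0.045). In the last, F2 libraries with DMSO correlated with same-numbered WT libraries, by 0.108 to 0.375 with DMSO and 0.164 to 0.372 with tazemetostat. Over all its pairs of groups the correlation ran from -0.12 to 0.38. It ran from -0.24 to 0.32 in the E1 response difference. With tazemetostat it ran from -0.24 to 0.23 in E1 against WT and from -0.15 to -0.014 in E1 against F2. With 3 libraries a group, log2 intervals were about 0.23 wide for DNMT1 and 0.87 for TET1 from end to end within a line.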
